A study of Mus musculus with 12 samples.

Results

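The genes described here are 39 enzymes of the urea cycle and of amino acid catabolism, taken by gene name from a table of 54532 mouse genes. Of these, 37 reached a mean of 1 FPKM (fragments per kilobase of gene length, scaled by library size) over the 12 libraries and were tested among 9743 genes, and Hal and Sds lay below that level. The libraries are bulk RNA-seq of primary hepatocytes, the main cell of the liver, taken from 6-week-old mice of the genotypes G3bp1-HKO (HKO) and G3bp1-Flox (Flox). Cells of each genotype were given PA or BSA, which makes 4 groups of 3 libraries: HKO_PA, HKO_BSA, Flox_PA and Flox_BSA. The labels do not spell out HKO, BSA or PA, and neither the driver of the knockout nor a dose is given in the sources used here. The series text gives the effect of G3BP1, a protein known from stress granules, on NASH, a fatty liver disease with inflammation, as its question.

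Hepatocytes break down most of the amino acids that reach the liver, and they turn the ammonia set free into urea. Carbamoyl phosphate made in the mitochondrion from ammonia enters the urea cycle through ornithine transcarbamylase, and the cycle then runs through citrulline, argininosuccinate and arginine. Transaminases pass amino groups to glutamate and aspartate, and the carbon skeletons of tyrosine, tryptophan, histidine, proline and the branched-chain amino acids go on to central metabolism. Methionine is handled apart, through S-adenosylmethionine, homocysteine and the transsulfuration route to cysteine.

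The targeted gene was checked beforehand. G3bp1 averaged 7.5 ± 0.54 FPKM in HKO_PA and 8.25 ± 0.413 FPKM in HKO_BSA, against 39.9 ± 1.52 FPKM in Flox_PA and 41.2 ± 4.11 FPKM in Flox_BSA (SD, n = 3 each), so the genotype labels and the G3bp1 level match in all 12 libraries. The libraries held 15.02 M to 18.42 M reads in genes, where M stands for the sixth power of 10. The summed level of 20 hepatocyte markers ran from 32501 to 49567 FPKM in HKO_PA and from 33510 to 40028 FPKM in HKO_BSA, against 27518 to 30228 FPKM in Flox_PA and 25485 to 27682 FPKM in Flox_BSA. Each of the 20 reached 1 FPKM in some library of every group. In PA 9 were higher and 3 lower in HKO (median log2 change 0.38), where 16.9% of all genes passed upward and 18.8% downward (median 0). In BSA 9 were higher and 1 lower (0.61), where 9.63% of all genes passed upward and 10.8% downward (median 0.04). The summed level of 16 macrophage markers ran from 144 to 185 FPKM in HKO_PA and from 96.2 to 138 FPKM in HKO_BSA, against 2172 to 2443 FPKM in Flox_PA and 2558 to 2635 FPKM in Flox_BSA. All 16 macrophage genes fell in HKO under both treatments, where 18.8% of all genes passed downward in PA and 10.8% in BSA. Of the 16, 2 were under 1 FPKM in every HKO_PA library and 3 in every HKO_BSA library, against 0 in each Flox group. Such genes reached the level needed for testing through the Flox libraries, so their calls are tied to that filter. None of the 16 was at 0 in any group, and no gene of the stellate cell and fibroblast list reached the level needed for testing. Of the smaller marker lists, that of bile duct cells summed to 118 to 150 FPKM in HKO_PA and 154 to 276 FPKM in HKO_BSA, against 21 to 27.5 FPKM in Flox_PA and 65.2 to 74.1 FPKM in Flox_BSA. The endothelial list summed to at most 21.7 FPKM in HKO and at least 27.3 FPKM in Flox, and the lymphocyte and neutrophil list to at most 0.722 FPKM in HKO and at least 13.4 FPKM in Flox, with 6 of its 10 genes at 0 in HKO_PA and 4 in HKO_BSA. In such bulk samples fewer cells of a type and less RNA per cell cannot be told apart, and the part of this difference in cell markers in the results on the enzymes was not tested.

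The 39 enzymes together came to between 2322 and 2945 FPKM in HKO_PA and between 2239 and 3172 FPKM in HKO_BSA, against 1854 to 1996 FPKM in Flox_PA and 1687 to 1847 FPKM in Flox_BSA. The sums of the genotypes did not overlap. Gnmt alone averaged 851 FPKM over the 12 libraries, followed by Ass1 at 325 FPKM, Ahcy at 162 FPKM and Haao at 118 FPKM. Cps1, which makes the carbamoyl phosphate of the cycle, averaged 9.91 FPKM and stood at position 25 of 39. At the low end, Tdo2 averaged 1.61 FPKM, Kmo 1.37 FPKM, Hal 0.384 FPKM and Sds 0.279 FPKM.

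The first comparison, HKO against Flox, asked which of these enzymes differ with the genotype. With BSA, 14 of the 37 tested enzymes were higher and 1 was lower in HKO, and with PA, 12 were higher and 3 were lower (limma on log2(FPKM + 1), Benjamini-Hochberg adjusted p under 0.05 over all genes tested). In BSA 20.5% of all genes passed, 9.63% upward and 10.8% downward. In PA 35.7% passed, 16.9% upward and 18.8% downward. The median log2 change of the 37 was 0.41 in BSA and 0.23 in PA, against 0.04 and 0 over all genes. These directions hold relative to all genes in a library: when the libraries were instead scaled to an equal median of the 20 hepatocyte markers, the median of all genes moved to -0.66 in BSA and -0.45 in PA, that of the enzymes to -0.36 and -0.20, and the calls turned to 0 higher and 18 lower in BSA and 2 higher and 16 lower in PA. Under that scaling 1.23% of all genes passed upward and 74.8% downward in BSA, and 2.88% upward and 51.8% downward in PA. The authors' library sizes, by which the FPKM are divided, lay below the reads in genes in 5 of 6 HKO libraries and above them in 6 of 6 Flox libraries. When the libraries were scaled to their reads in genes instead, the median of all genes moved to -0.10 in BSA and -0.13 in PA, and that of the enzymes to 0.23 and 0.13. Then 11 enzymes were higher and 1 lower in BSA, where 5.63% of all genes passed upward and 14.7% downward, and 8 were higher and 5 lower in PA, where 12.1% passed upward and 25.4% downward. Got1, Ivd and Prodh2 no longer passed in BSA, nor did Gls2, Glud1, Got1 and Mat1a in PA, while Arg1 (-0.64, limma adjusted p = 0.0131) and Fah (-0.45, adjusted p = 0.0281) were lower in PA.

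The same 10 enzymes were higher under both treatments, namely Agxt, Gls2, Glud1, Gnmt, Got1, Gstz1, Mat1a, Otc, Tat and Tdo2. Nags was lower under both. Amdhd1, Gpt, Ivd and Prodh2 passed upward in BSA, Cth and Kmo passed upward in PA, Glul and Uroc1 passed downward in PA, and 18 enzymes passed under neither. Each of these splits is a difference in calls, and none of the enzymes passed the test of the difference between treatments given further on. Counted without a model, in PA 18 enzymes had all 3 HKO libraries above all 3 Flox libraries and 5 had them below, where 26% of all genes lay apart in each direction. In BSA the counts were 19 above and 1 below, where 19.7% of all genes lay apart upward and 18% downward. Tdo2 and Kmo reached the level needed for testing only through the HKO libraries, so their place among the tested enzymes is tied to their direction. The counts of higher enzymes, here and above, include Tdo2 in both treatments and Kmo in PA, and these calls are tied to it as well. No p-value is given for these 2 genes.

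**Figure D1:**
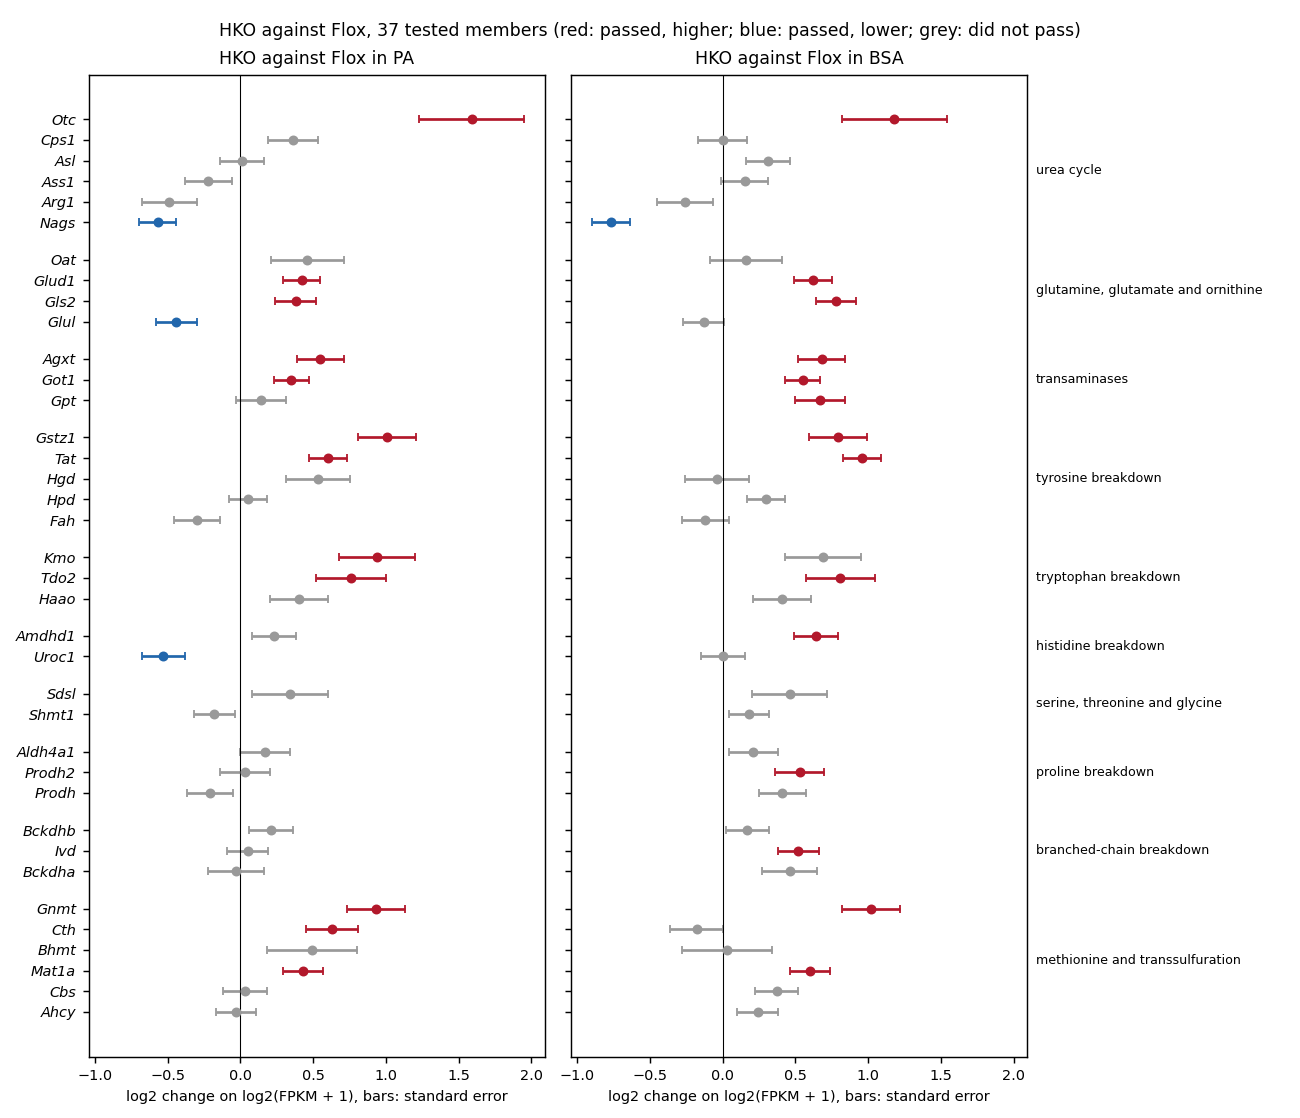
The log2 change of HKO against Flox on log2(FPKM + 1) is plotted for each of the 37 tested enzymes, with PA on the left and BSA on the right, points for the estimate, bars for the standard error and role groups at the right edge. Otc is farthest to the right in both panels (1.59 in PA and 1.18 in BSA) and Nags farthest to the left (-0.57 and -0.77). With libraries scaled to the hepatocyte markers, the median of the enzymes turned to -0.20 in PA and -0.36 in BSA.

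Of the 39 genes, 30 were matched by symbol to promoter sequences of RefSeq (build GRCm38.p6), windows of 300 bases that lie mostly before the annotated start. Those of Otc, Tat, Got1 and Nags are printed because these genes stand for the largest log2 change on the log2(FPKM + 1) scale, the smallest p-value in HKO against Flox, a transaminase with an amino acid response motif and the single enzyme that fell under both treatments. Capitals mark a motif match, and each sequence is given on the strand of its gene.
Otc promoter, chrX:10252055-10252354, plus strand: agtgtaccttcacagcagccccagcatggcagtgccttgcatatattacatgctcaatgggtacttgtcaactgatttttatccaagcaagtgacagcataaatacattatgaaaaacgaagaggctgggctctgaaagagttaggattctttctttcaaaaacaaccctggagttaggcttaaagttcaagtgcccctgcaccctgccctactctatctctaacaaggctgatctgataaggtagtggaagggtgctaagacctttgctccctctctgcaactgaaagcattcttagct
Tat promoter, chr8:109990186-109990485, plus strand: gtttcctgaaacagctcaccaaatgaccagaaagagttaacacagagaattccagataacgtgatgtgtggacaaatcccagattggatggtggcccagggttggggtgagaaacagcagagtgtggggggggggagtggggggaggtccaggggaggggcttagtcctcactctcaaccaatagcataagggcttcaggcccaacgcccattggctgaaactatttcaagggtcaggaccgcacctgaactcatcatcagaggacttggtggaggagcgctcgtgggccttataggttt
Got1 promoter, chr19:43524556-43524855, minus strand: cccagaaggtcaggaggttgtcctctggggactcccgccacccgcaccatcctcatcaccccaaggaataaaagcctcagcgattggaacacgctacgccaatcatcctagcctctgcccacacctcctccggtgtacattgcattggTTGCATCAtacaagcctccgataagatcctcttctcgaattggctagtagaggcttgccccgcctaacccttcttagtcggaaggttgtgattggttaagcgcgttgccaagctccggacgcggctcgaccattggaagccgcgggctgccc
Nags promoter, chr11:102145263-102145562, plus strand: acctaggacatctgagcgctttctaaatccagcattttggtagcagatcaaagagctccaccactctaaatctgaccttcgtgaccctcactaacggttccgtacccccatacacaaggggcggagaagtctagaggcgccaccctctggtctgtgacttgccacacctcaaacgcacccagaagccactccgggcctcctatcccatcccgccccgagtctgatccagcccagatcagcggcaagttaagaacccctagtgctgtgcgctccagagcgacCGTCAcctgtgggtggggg
Both strands were searched for 6 motifs. The amino acid response element TGATGCAA was found in the window of 1 of the 30 matched genes, Got1, on the strand opposite to the gene, and 0.9% of all 32851 promoters hold it. The cAMP response element TGACGTCA was in none of the 30 (1.8% of all promoters), and its shorter form TGACG, which is part of the longer one, was in the windows of Gstz1, Nags, Oat and Shmt1 (20.8% of all). The C/EBP motif TTGCNNAA was in those of Hal, Hgd and Prodh2 (10.8%), TATAAA in those of Hal, Hgd and Tdo2 (13.6%), and the E box CACGTG in those of Ass1 and Cbs (7.2%). The Otc and Tat windows held no match to any of the 6. These matches describe letters in a window and are no evidence of binding.

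Within the urea cycle the enzymes went different ways. Of the 6 genes, Otc passed upward and Nags downward under both treatments, and Cps1, Ass1, Asl and Arg1 passed under neither on the FPKM scale. Otc (ENSMUSG00000031173, chromosome X, 10252305 to 10321024 on the plus strand, GRCm38) encodes ornithine transcarbamylase, which joins carbamoyl phosphate to ornithine in the mitochondrion. Otc had 24.8, 13.2 and 7.9 FPKM in HKO_PA and 7, 18 and 18.6 FPKM in HKO_BSA, against 4.53, 3.5 and 3.77 FPKM in Flox_PA and 5.63, 4.74 and 5.79 FPKM in Flox_BSA. Every HKO library lay above every Flox library, but the HKO libraries spread widely, with HKO_PA 3 and HKO_BSA 1 near the Flox range. The log2 change was 1.59 ± 0.36 (SE, limma adjusted p = 0.0039) in PA and 1.18 ± 0.36 (adjusted p = 0.0312) in BSA. In PA the call held with any library left out (1.20 to 1.96). In BSA it was lost without Flox_BSA 1, 2 or 3 and without HKO_BSA 2 or 3 (0.95 to 1.22, adjusted p 0.0606 to 0.13), and with the replicate number as a block (adjusted p = 0.0579). It was also lost with no filter on low values (adjusted p = 0.0972) and with the hepatocyte scaling (0.45, adjusted p = 0.289). Without HKO_BSA 1 the change was 1.60 (adjusted p = 0.00288).

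Nags (ENSMUSG00000048217, chromosome 11, 102145513 to 102149477 on the plus strand) encodes N-acetylglutamate synthase, whose product is the activator that carbamoyl phosphate synthetase needs. Nags had 9.62, 7.37 and 9.24 FPKM in HKO_PA and 6.45, 4.78 and 4.92 FPKM in HKO_BSA, against 13.4, 13.4 and 13.5 FPKM in Flox_PA and 10.2, 9.58 and 9.74 FPKM in Flox_BSA. Under each treatment every HKO library lay below every Flox library, and the HKO_PA libraries reached the lower end of Flox_BSA. Nags fell by 0.57 ± 0.13 (SE) on the log2 scale in PA (limma adjusted p = 0.00536) and by 0.77 ± 0.13 in BSA (adjusted p = 0.000779). Both calls held under all 19 alternatives tried for each, the hepatocyte scaling included.

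The other 4 urea cycle enzymes differed less on the FPKM scale. Ass1, which condenses citrulline with aspartate, had 297, 289 and 320 FPKM in HKO_PA and 434, 294 and 297 FPKM in HKO_BSA, against 378, 342 and 337 FPKM in Flox_PA and 333, 281 and 298 FPKM in Flox_BSA. Its 3 HKO_PA libraries lay below its 3 Flox_PA libraries without passing (log2 change -0.22, limma adjusted p = 0.286), and in BSA the groups overlapped. Asl, which splits argininosuccinate, averaged 46.7 ± 6.39 FPKM in HKO_PA and 56.5 ± 11.2 FPKM in HKO_BSA, against 46.3 ± 2.25 FPKM in Flox_PA and 44.7 ± 0.588 FPKM in Flox_BSA (SD, n = 3 each). Arg1, the liver arginase that releases urea, averaged 9.41 ± 1.69 FPKM in HKO_PA and 9 ± 1.67 FPKM in HKO_BSA, against 13.6 ± 2.46 FPKM in Flox_PA and 11 ± 2.29 FPKM in Flox_BSA. Its groups overlapped under both treatments, and its log2 changes of -0.49 in PA and -0.26 in BSA did not pass (limma adjusted p = 0.0587 and 0.376). In PA Arg1 did pass with a GC trend removed, without Flox_PA 1, without HKO_PA 1 and without both HKO libraries numbered 1 (-0.64 to -0.61, limma adjusted p 0.0129 to 0.0414). Cps1 averaged 10.5 ± 1.94 FPKM in HKO_PA and 10.6 ± 1.41 FPKM in HKO_BSA, against 7.88 ± 1.17 FPKM in Flox_PA and 10.7 ± 1.66 FPKM in Flox_BSA, and did not pass (adjusted p = 0.106 in PA and 0.996 in BSA), except without HKO_PA 3 (0.50 in PA, adjusted p = 0.03). With the hepatocyte scaling Arg1 (-1.02 in PA and -1.02 in BSA), Ass1 (-0.81 and -0.68) and Asl (-0.57 and -0.50) passed downward under both treatments and Cps1 did so in BSA (-0.76), while Ass1 also passed downward in PA with quantile normalization (-0.55, adjusted p = 0.0132).

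Among the enzymes of glutamine, glutamate and ornithine, Glud1 and Gls2 were higher in HKO under both treatments, Glul was lower in PA, and Oat did not pass. Glud1, glutamate dehydrogenase, which frees ammonia from glutamate, had 89.1, 72.1 and 76.5 FPKM in HKO_PA and 81.8, 99 and 99.9 FPKM in HKO_BSA, against 56.7, 58.8 and 60.8 FPKM in Flox_PA and 60.2, 59.3 and 61.8 FPKM in Flox_BSA. The Flox libraries lay close together and below all HKO libraries. The change was 0.42 ± 0.13 (SE, limma adjusted p = 0.0201) in PA and 0.62 ± 0.13 (adjusted p = 0.00285) in BSA on the FPKM scale, and -0.16 and -0.20 with the hepatocyte scaling. The PA call was lost without Flox_PA 1, Flox_PA 2 or HKO_PA 1 (0.33 to 0.42, adjusted p 0.0614 to 0.0654).

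Gls2, the liver glutaminase, had 5.25, 6.51 and 6.75 FPKM in HKO_PA and 8.29, 7.72 and 7.54 FPKM in HKO_BSA, against 3.58, 4.97 and 5.06 FPKM in Flox_PA and 4.15, 4.55 and 3.81 FPKM in Flox_BSA. The genotypes were farther apart in BSA than in PA, where HKO_PA 1 lay just above the highest Flox_PA library. The change was 0.78 ± 0.14 (SE, limma adjusted p = 0.00107) in BSA, and 0.38 ± 0.14 in PA with an adjusted p that rounds to 0.05 and lay just under the threshold. That PA call was lost under 12 of 19 alternatives, without Flox_PA 1, 2 or 3 and without HKO_PA 2 or 3 among them (0.25 to 0.45, adjusted p 0.0613 to 0.209), and its sign turned with the hepatocyte scaling (-0.11). With that scaling the BSA call was lost (0.07, adjusted p = 0.726). Of the exon bases of Gls2, 2.79% are shared with Spryd4 on the opposite strand, a gene that also passed upward in BSA (0.44, adjusted p = 0.0209), and the sources used here do not say whether reads were counted by strand.

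Glul, glutamine synthetase, which fixes ammonia in the hepatocytes around the central vein, had 63.8, 73.9 and 86.7 FPKM in HKO_PA and 75.7, 62.1 and 57.8 FPKM in HKO_BSA, against 93, 106 and 105 FPKM in Flox_PA and 73.6, 69.5 and 69.9 FPKM in Flox_BSA. Flox_PA was the highest of the 4 groups and did not overlap with HKO_PA, whereas the BSA groups overlapped. Glul fell by 0.44 ± 0.14 (SE) in PA (limma adjusted p = 0.0287), a call lost without Flox_PA 2, Flox_PA 3, HKO_PA 1 or HKO_PA 2 (-0.44 to -0.33, adjusted p 0.0647 to 0.1). In BSA its change was -0.13 (adjusted p = 0.582), and with the hepatocyte scaling Glul passed downward there (-0.95, adjusted p = 0.000337). Oat, ornithine aminotransferase, had 20, 19.8 and 19.7 FPKM in HKO_PA and 9.28, 22.6 and 22.3 FPKM in HKO_BSA, against 14.4, 12.9 and 15.4 FPKM in Flox_PA and 14.3, 13.5 and 17.1 FPKM in Flox_BSA. HKO_BSA 1 was the lowest library for Oat and the other 5 HKO libraries were above all Flox libraries. Oat did not pass with all libraries (0.46, adjusted p = 0.164 in PA, and 0.16, adjusted p = 0.698 in BSA), and did so without both HKO libraries numbered 1 (0.45, adjusted p = 0.00802 in PA, and 0.56, adjusted p = 0.00217 in BSA).

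All 3 transaminases were higher in HKO with BSA, and Agxt and Got1 with PA as well, on the FPKM scale; with the hepatocyte scaling the changes that had passed were negative, between -0.27 and -0.02. Agxt, which moves the amino group of alanine to glyoxylate in peroxisomes, had 39.5, 30.8 and 36.4 FPKM in HKO_PA and 44.8, 30.8 and 37.3 FPKM in HKO_BSA, against 23.1, 25.2 and 23.5 FPKM in Flox_PA and 26.6, 19.4 and 22.9 FPKM in Flox_BSA. No HKO library overlapped with Flox. Agxt changed by 0.55 ± 0.16 (SE, limma adjusted p = 0.0176) in PA and 0.68 ± 0.16 (adjusted p = 0.00697) in BSA, and the PA call was lost without Flox_PA 1, Flox_PA 3 or HKO_PA 1 (0.47 to 0.53, adjusted p 0.0535 to 0.0595).

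Got1 (ENSMUSG00000025190, chromosome 19, 43499752 to 43524605 on the minus strand), the cytosolic aspartate aminotransferase, had 65.7, 70.9 and 79.1 FPKM in HKO_PA and 74.2, 77.4 and 77.6 FPKM in HKO_BSA, against 54, 56.4 and 58.2 FPKM in Flox_PA and 54.1, 46.4 and 55.8 FPKM in Flox_BSA. The 2 genotypes did not overlap. Its change was 0.35 ± 0.12 (SE, limma adjusted p = 0.0387) in PA and 0.55 ± 0.12 (adjusted p = 0.00489) in BSA. In PA it no longer passed without Flox_PA 1, 2 or 3 or without HKO_PA 2 or 3 (0.28 to 0.37, adjusted p 0.0765 to 0.112). Gpt, the alanine aminotransferase measured in blood as a sign of liver injury, had 35.3, 28.3 and 36.3 FPKM in HKO_PA and 59, 35.5 and 40.5 FPKM in HKO_BSA, against 28.5, 31.6 and 29.8 FPKM in Flox_PA and 28.2, 26.9 and 27 FPKM in Flox_BSA. HKO_BSA 1 was the highest library by a wide margin, the BSA groups were apart, and the PA groups overlapped. Gpt changed by 0.67 ± 0.17 (SE, limma adjusted p = 0.0119) in BSA and had a change of 0.14 in PA (adjusted p = 0.536), where with the hepatocyte scaling it passed downward (-0.43, adjusted p = 0.00945).

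**Figure D2:**
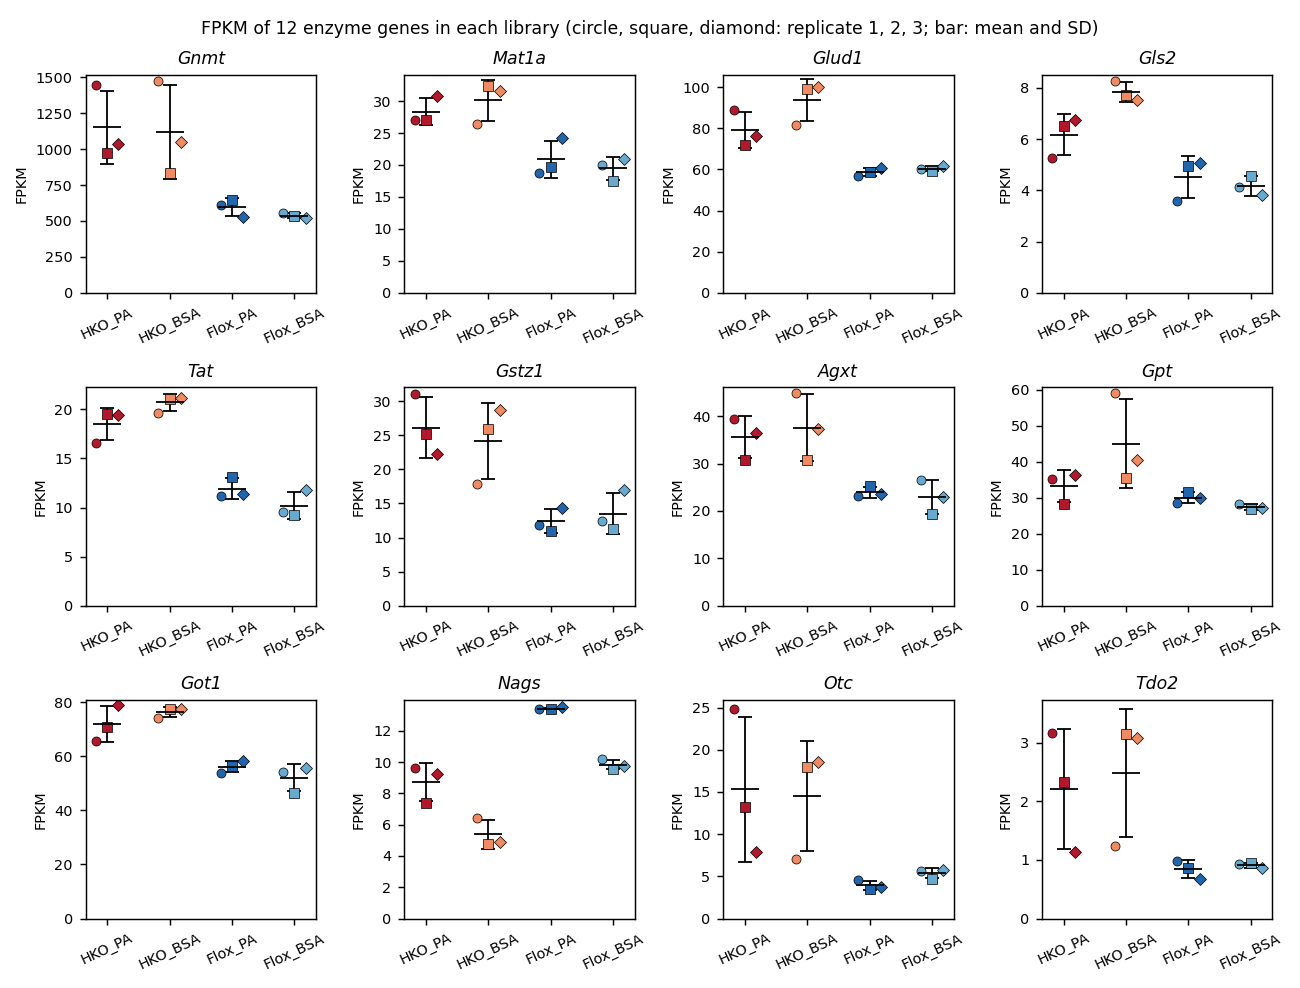
FPKM of 12 of the enzymes is shown in each library, with the groups HKO_PA, HKO_BSA, Flox_PA and Flox_BSA from left to right, a circle, square or diamond for replicate 1, 2 or 3, and a bar for the mean and SD of 3 libraries. Tat, Glud1 and Got1 keep the HKO libraries close together and above Flox, Nags is the gene with HKO below Flox under each treatment, and Otc and Tdo2 spread widely within HKO (7 to 24.8 FPKM for Otc). The levels are relative to all genes of a library, and with the hepatocyte scaling the sign turns for Glud1, Agxt, Got1, Mat1a and Gpt in both treatments and for Gls2 in PA.

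Of the 5 genes of tyrosine breakdown, Tat and Gstz1 were higher in HKO under both treatments, and Hpd, Hgd and Fah did not pass. Tat (ENSMUSG00000001670, chromosome 8, 109990437 to 109999803 on the plus strand) encodes tyrosine aminotransferase, a long-studied target of glucocorticoids in liver. Tat had 16.6, 19.5 and 19.4 FPKM in HKO_PA and 19.6, 21.1 and 21.2 FPKM in HKO_BSA, against 11.2, 13.1 and 11.4 FPKM in Flox_PA and 9.58, 9.25 and 11.8 FPKM in Flox_BSA. Replicates agreed closely, and the HKO and Flox libraries were well apart. The change was 0.60 ± 0.13 (SE, limma adjusted p = 0.00304) in PA and 0.96 ± 0.13 (adjusted p = 6.97e-05) in BSA, and both calls held with any library left out (0.56 to 0.67 in PA and 0.90 to 1.06 in BSA). With the hepatocyte scaling they were 0.05 and 0.18 and did not pass.

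Gstz1, which isomerises maleylacetoacetate further down the same route, had 31, 25.2 and 22.2 FPKM in HKO_PA and 17.9, 25.9 and 28.7 FPKM in HKO_BSA, against 11.8, 11 and 14.4 FPKM in Flox_PA and 12.4, 11.2 and 17 FPKM in Flox_BSA. HKO_BSA 1 came close to Flox_BSA 3, and no libraries of the genotypes overlapped. The change was 1.01 ± 0.20 (SE, limma adjusted p = 0.00172) in PA and 0.79 ± 0.20 (adjusted p = 0.0116) in BSA, where the call was lost without Flox_BSA 1, Flox_BSA 2 or HKO_BSA 3 (0.66 to 0.74, adjusted p 0.052 to 0.0663). With the hepatocyte scaling neither call passed (0.46 in PA and 0.01 in BSA). Pomt2 on the opposite strand shares 9.14% of the exon bases of Gstz1, averaged 4.23 FPKM and did not pass. Hpd, the dioxygenase that follows Tat, averaged 94.6 ± 7.27 FPKM in HKO_PA and 103 ± 6.28 FPKM in HKO_BSA, against 91.3 ± 3.23 FPKM in Flox_PA and 83.5 ± 9.92 FPKM in Flox_BSA. Hgd, homogentisate dioxygenase, had a log2 change of 0.53 in PA (adjusted p = 0.0735) and -0.04 in BSA (adjusted p = 0.921). In PA Hgd passed upward without HKO_PA 3 (0.69, adjusted p = 0.028) and with quantile normalization (0.58, adjusted p = 0.0482). With the hepatocyte scaling Hgd passed downward in BSA (-0.79, adjusted p = 0.00983). Fah, whose loss causes hereditary tyrosinemia, had -0.30 in PA (adjusted p = 0.155) and -0.12 in BSA (adjusted p = 0.655).

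The tryptophan enzymes had positive log2 changes in HKO for all 3 genes under both treatments. Tdo2 and Kmo were tested only because of their HKO libraries, so their changes are given without a p-value. Tdo2, tryptophan dioxygenase, which opens the kynurenine route in liver, had 3.16, 2.33 and 1.14 FPKM in HKO_PA and 1.23, 3.15 and 3.08 FPKM in HKO_BSA, against 0.974, 0.868 and 0.674 FPKM in Flox_PA and 0.929, 0.94 and 0.863 FPKM in Flox_BSA. HKO_PA 3 and HKO_BSA 1 lay near the Flox libraries, as they did for Otc. The change was 0.76 ± 0.24 (SE) in PA and 0.81 ± 0.24 in BSA on the log2(FPKM + 1) scale, which understates changes at so low a level. In PA it was 0.54 to 0.77 without Flox_PA 2, Flox_PA 3, HKO_PA 1 or HKO_PA 2. In BSA it was 0.66 to 0.82 without Flox_BSA 1, 2 or 3 or HKO_BSA 2 or 3.

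Kmo, which hydroxylates kynurenine, had 3.14, 1.72 and 1.01 FPKM in HKO_PA and 0.927, 2.69 and 2.86 FPKM in HKO_BSA, against 0.51, 0.526 and 0.397 FPKM in Flox_PA and 0.94, 0.772 and 0.91 FPKM in Flox_BSA. The PA groups were apart, and in BSA HKO_BSA 1 fell among the Flox libraries. The change of Kmo was 0.94 ± 0.26 (SE) in PA, 0.66 in PA without HKO_PA 1, and 0.69 in BSA. Haao, which acts after Kmo, averaged 134 ± 24.9 FPKM in HKO_PA and 136 ± 39.6 FPKM in HKO_BSA, against 101 ± 12.7 FPKM in Flox_PA and 100 ± 6.7 FPKM in Flox_BSA. It did not pass in the main fit (limma adjusted p = 0.128 in PA and 0.174 in BSA). In BSA Haao passed upward without HKO_BSA 2 (0.61, adjusted p = 0.0387) and downward with the hepatocyte scaling (-0.42, adjusted p = 0.014).

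Of the 3 histidine enzymes, Amdhd1 was higher in HKO in BSA, Uroc1 was lower in PA, and Hal was too low to be tested. Uroc1, urocanase, had 5.81, 5.68 and 8.47 FPKM in HKO_PA and 9.02, 7.38 and 7.51 FPKM in HKO_BSA, against 9.28, 9.66 and 10.9 FPKM in Flox_PA and 7.69, 7.34 and 8.81 FPKM in Flox_BSA. The PA groups were apart and the BSA groups overlapped, with means of 7.97 FPKM in HKO_BSA and 7.95 FPKM in Flox_BSA. Uroc1 fell by 0.53 ± 0.15 (SE) in PA (limma adjusted p = 0.0158), and its BSA change was 0 (adjusted p = 0.994). With the hepatocyte scaling it passed downward in BSA as well (-0.74, adjusted p = 0.00155). The PA call was lost without Flox_PA 3, HKO_PA 1 or HKO_PA 2 (-0.47 to -0.44, adjusted p 0.052 to 0.0705).

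Amdhd1, imidazolonepropionase, which follows urocanase, had 1.97, 2.05 and 1.7 FPKM in HKO_PA and 3.43, 1.81 and 2.44 FPKM in HKO_BSA, against 1.45, 1.66 and 1.31 FPKM in Flox_PA and 1.08, 1.13 and 1.55 FPKM in Flox_BSA. Its HKO libraries lay above Flox under both treatments, by a narrow margin in PA. Amdhd1 changed by 0.64 ± 0.15 (SE, limma adjusted p = 0.00884) in BSA and 0.23 in PA (adjusted p = 0.258). The BSA call was lost with the hepatocyte scaling (0.11, adjusted p = 0.451). Hal, the ammonia-lyase that opens histidine breakdown, averaged 0.499 ± 0.0799 FPKM in HKO_PA and 0.557 ± 0.0627 FPKM in HKO_BSA, against 0.246 ± 0.0177 FPKM in Flox_PA and 0.232 ± 0.0277 FPKM in Flox_BSA (SD, n = 3 each). In a fit with no filter on low values Hal passed upward in PA (0.27, adjusted p = 0.00724) and in BSA (0.34, adjusted p = 0.00165).

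Methionine metabolism held the most abundant enzyme of the set and 3 that passed. Gnmt (ENSMUSG00000002769, chromosome 17, 46725664 to 46729168 on the minus strand), glycine N-methyltransferase, uses up S-adenosylmethionine by methylating glycine to sarcosine. Gnmt had 1446, 975 and 1039 FPKM in HKO_PA and 1472, 832 and 1050 FPKM in HKO_BSA, against 613, 646 and 528 FPKM in Flox_PA and 556, 536 and 522 FPKM in Flox_BSA. Both HKO libraries numbered 1 were the highest, and every HKO library was above every Flox library. The change was 0.93 ± 0.20 (SE, limma adjusted p = 0.0035) in PA and 1.02 ± 0.20 (adjusted p = 0.00257) in BSA. Without both HKO libraries numbered 1 it was 0.76 and 0.80 and passed in both. With the hepatocyte scaling the BSA call was lost (0.18, adjusted p = 0.193), and the PA call held under all 19 alternatives.

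Mat1a, the liver enzyme that makes S-adenosylmethionine, had 27.1, 27.1 and 30.8 FPKM in HKO_PA and 26.4, 32.4 and 31.5 FPKM in HKO_BSA, against 18.7, 19.7 and 24.2 FPKM in Flox_PA and 20, 17.5 and 21 FPKM in Flox_BSA. The genotypes did not overlap, with Flox_PA 3 the nearest to HKO. Mat1a changed by 0.43 ± 0.14 (SE, limma adjusted p = 0.0267) in PA and 0.60 ± 0.14 (adjusted p = 0.00636) in BSA on the FPKM scale, and by -0.13 and -0.20 with the hepatocyte scaling. The PA call was lost without Flox_PA 1, Flox_PA 2 or HKO_PA 3 (0.36 to 0.39, adjusted p 0.0653 to 0.102).

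Cth, cystathionine gamma-lyase, which closes the route to cysteine, had 86.5, 80.4 and 76.7 FPKM in HKO_PA and 48.6, 71.8 and 81.7 FPKM in HKO_BSA, against 52.8, 46.9 and 57.4 FPKM in Flox_PA and 71.4, 65.9 and 89.1 FPKM in Flox_BSA. All 3 HKO_PA libraries lay above all 3 Flox_PA libraries, and the BSA groups overlapped. Cth passed in PA (0.63 ± 0.18, SE, limma adjusted p = 0.0171), where the call was lost without Flox_PA 2 or HKO_PA 1 and once a trend with GC content was removed (0.39 to 0.58, adjusted p 0.0515 to 0.071). Quantile normalization (0.48, adjusted p = 0.0688) and the hepatocyte scaling (0.05, adjusted p = 0.871) ended that call too. In BSA the change of Cth was -0.18 (adjusted p = 0.534), and with the hepatocyte scaling Cth passed downward there (-1.0, adjusted p = 0.00205). Cbs, which starts that route, had a change of 0.03 in PA (adjusted p = 0.885) and 0.37 in BSA (adjusted p = 0.0953). Ahcy, which hydrolyses S-adenosylhomocysteine, averaged 157 ± 8.85 FPKM in HKO_PA and 179 ± 31.7 FPKM in HKO_BSA, against 161 ± 10.1 FPKM in Flox_PA and 149 ± 9.3 FPKM in Flox_BSA, and did not pass. Bhmt, which remethylates homocysteine with betaine, had 49.3, 35.9 and 30.9 FPKM in HKO_PA and 20, 51.1 and 55.2 FPKM in HKO_BSA, against 27.7, 24.7 and 27.9 FPKM in Flox_PA and 33.9, 31.6 and 50.2 FPKM in Flox_BSA. HKO_BSA 1 was the lowest of the 12 for Bhmt, and the gene did not pass with all libraries (0.49, adjusted p = 0.233 in PA, and 0.03, adjusted p = 0.966 in BSA). Without both HKO libraries numbered 1 it passed in BSA (0.48, adjusted p = 0.0376).

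In the main fit the proline and branched-chain enzymes passed once each, in BSA and for a single gene. Prodh2, which oxidises hydroxyproline, had 27.7, 19.9 and 23.2 FPKM in HKO_PA and 37.1, 23.1 and 26.1 FPKM in HKO_BSA, against 21.1, 24.7 and 23 FPKM in Flox_PA and 20.9, 18.5 and 18.4 FPKM in Flox_BSA. The BSA groups were apart and the PA groups overlapped. Prodh2 changed by 0.53 ± 0.17 (SE, limma adjusted p = 0.0421) in BSA, and by 0.03 in PA (adjusted p = 0.91). The BSA call was lost without Flox_BSA 1, 2 or 3 and without HKO_BSA 1 or 3 (0.34 to 0.59, adjusted p 0.0689 to 0.133), and its sign turned with the hepatocyte scaling (-0.27).

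Ivd, isovaleryl-CoA dehydrogenase of leucine breakdown, had 3.99, 4.73 and 5.58 FPKM in HKO_PA and 6.98, 5.07 and 6.27 FPKM in HKO_BSA, against 4.72, 4.58 and 4.31 FPKM in Flox_PA and 4.13, 3.42 and 4.28 FPKM in Flox_BSA. HKO_BSA stood above the other 3 groups except for HKO_PA 3. Ivd passed in BSA (0.52 ± 0.14, SE, limma adjusted p = 0.0194; -0.17 with the hepatocyte scaling), and not without Flox_BSA 1, Flox_BSA 2 or HKO_BSA 3 (0.44 to 0.55, adjusted p 0.0505 to 0.103). In PA its change was 0.05 (adjusted p = 0.802). Prodh, proline dehydrogenase, had a change of -0.21 in PA (adjusted p = 0.308) and 0.41 in BSA (adjusted p = 0.0867). In BSA Prodh passed upward with a GC trend removed (0.39, adjusted p = 0.0384) and with quantile normalization (0.41, adjusted p = 0.0464). With the hepatocyte scaling Prodh passed downward in PA (-0.74) and in BSA (-0.36). Bckdha and Bckdhb, subunits of the branched-chain ketoacid decarboxylase, and Aldh4a1, which finishes proline breakdown, did not pass in the main fit, with changes between -0.03 and 0.46. Bckdha passed upward in BSA with a GC trend removed (0.44, adjusted p = 0.0202) and without HKO_BSA 2 (0.62, adjusted p = 0.0448). Aldh4a1 did so in PA with a GC trend removed (0.37, adjusted p = 0.0354). With the hepatocyte scaling Bckdha passed downward in PA (-0.56), and Bckdhb (-0.58) and Aldh4a1 (-0.34) in BSA.

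None of the tested serine, threonine and glycine enzymes passed in the main fit. Sdsl, a relative of serine dehydratase, had 12.5, 9.01 and 9.07 FPKM in HKO_PA and 15.8, 5.76 and 7.74 FPKM in HKO_BSA, against 7.68, 7.98 and 7.59 FPKM in Flox_PA and 7.4, 6.05 and 5.41 FPKM in Flox_BSA. HKO_BSA 1 held the highest and HKO_BSA 2 one of the lowest values, so the BSA groups overlapped (0.46, limma adjusted p = 0.237), and the PA change was 0.34 (adjusted p = 0.317). Sdsl passed upward in BSA without HKO_BSA 2 (0.74, adjusted p = 0.0474) and in PA with a GC trend removed (0.49, adjusted p = 0.0423). Shmt1, the cytosolic serine hydroxymethyltransferase, had 6.42, 6.49 and 8.49 FPKM in HKO_PA and 8.98, 7.35 and 7.91 FPKM in HKO_BSA, against 7.67, 8.13 and 8.71 FPKM in Flox_PA and 6.86, 6.33 and 7.84 FPKM in Flox_BSA. Its groups overlapped under both treatments (adjusted p = 0.316 in PA and 0.4 in BSA). Sds, serine dehydratase, rested on 7, 17 and 8 reads in HKO_PA and 29, 10 and 6 reads in HKO_BSA, against 3, 1 and 2 reads in Flox_PA and 4, 1 and 1 reads in Flox_BSA. In the fit with no filter it did not pass in PA (0.41, adjusted p = 0.157) or in BSA (0.51, adjusted p = 0.0973), and 21.3% of its exon bases are shared with Plbd2 on the opposite strand, a gene of 21.6 FPKM on average.

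The next comparison, PA against BSA within a genotype, asked which enzymes respond to PA. In HKO 1 of the 37 enzymes passed, where 2.94% of all genes passed, and in Flox none did, where 2.21% passed. The enzyme was Nags, which rose in HKO with PA by 0.61 ± 0.13 (SE, limma adjusted p = 0.0271), with all 3 HKO_PA libraries above all 3 HKO_BSA libraries. In Flox its change was 0.41 ± 0.13 (adjusted p = 0.156), and the Flox_PA libraries also lay above the Flox_BSA libraries. The HKO call was lost without HKO_BSA 2, HKO_BSA 3 or HKO_PA 1 (0.55 to 0.56, adjusted p 0.0745 to 0.0961). It was also lost when only the HKO libraries were fitted (adjusted p = 0.315), with the replicate number as a block within genotype (adjusted p = 0.0601) and with no filter on low values (adjusted p = 0.0507).

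In HKO 5 of the 37 enzymes had an unadjusted p under 0.05, as did 20.8% of all genes. Besides Nags these were Prodh (-0.51, limma adjusted p = 0.101), Cbs (-0.39, adjusted p = 0.157), Gpt (-0.40, adjusted p = 0.198) and Gls2 (-0.31, adjusted p = 0.229). In Flox there were 4, where 15.9% of all genes had such a p, namely Glul (0.51, adjusted p = 0.101), Nags, Cth (-0.51, adjusted p = 0.199) and Cps1 (-0.39, adjusted p = 0.283). The Flox libraries varied less than the HKO libraries: the median SD of an enzyme on the log2 scale was 0.201 in HKO_PA and 0.273 in HKO_BSA, against 0.104 in Flox_PA and 0.131 in Flox_BSA. In a fit of Flox alone, in which 15.8% of all genes passed, 4 enzymes did so: Glul (0.51, adjusted p = 0.00509) and Nags (0.41, adjusted p = 0.00899) upward, and Cth (-0.51, adjusted p = 0.0232) and Otc (-0.37, adjusted p = 0.049) downward. By voom on the reads computed from the FPKM, 0 enzymes passed in Flox and 1 in HKO, where 2.04% of all genes passed in Flox and 3% in HKO.

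Counted by libraries, the 3 with PA lay apart from the 3 with BSA for 5 enzymes in HKO, where 18.2% of all genes did so, and for 13 of the 37 in Flox, where 39% did. In HKO Nags was higher with PA, and Cbs, Gls2, Prodh and Tat were lower. In Flox 8 were higher and 5 lower. The median log2 change of the 37 was -0.09 in HKO and 0.11 in Flox.

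**Figure D3:**
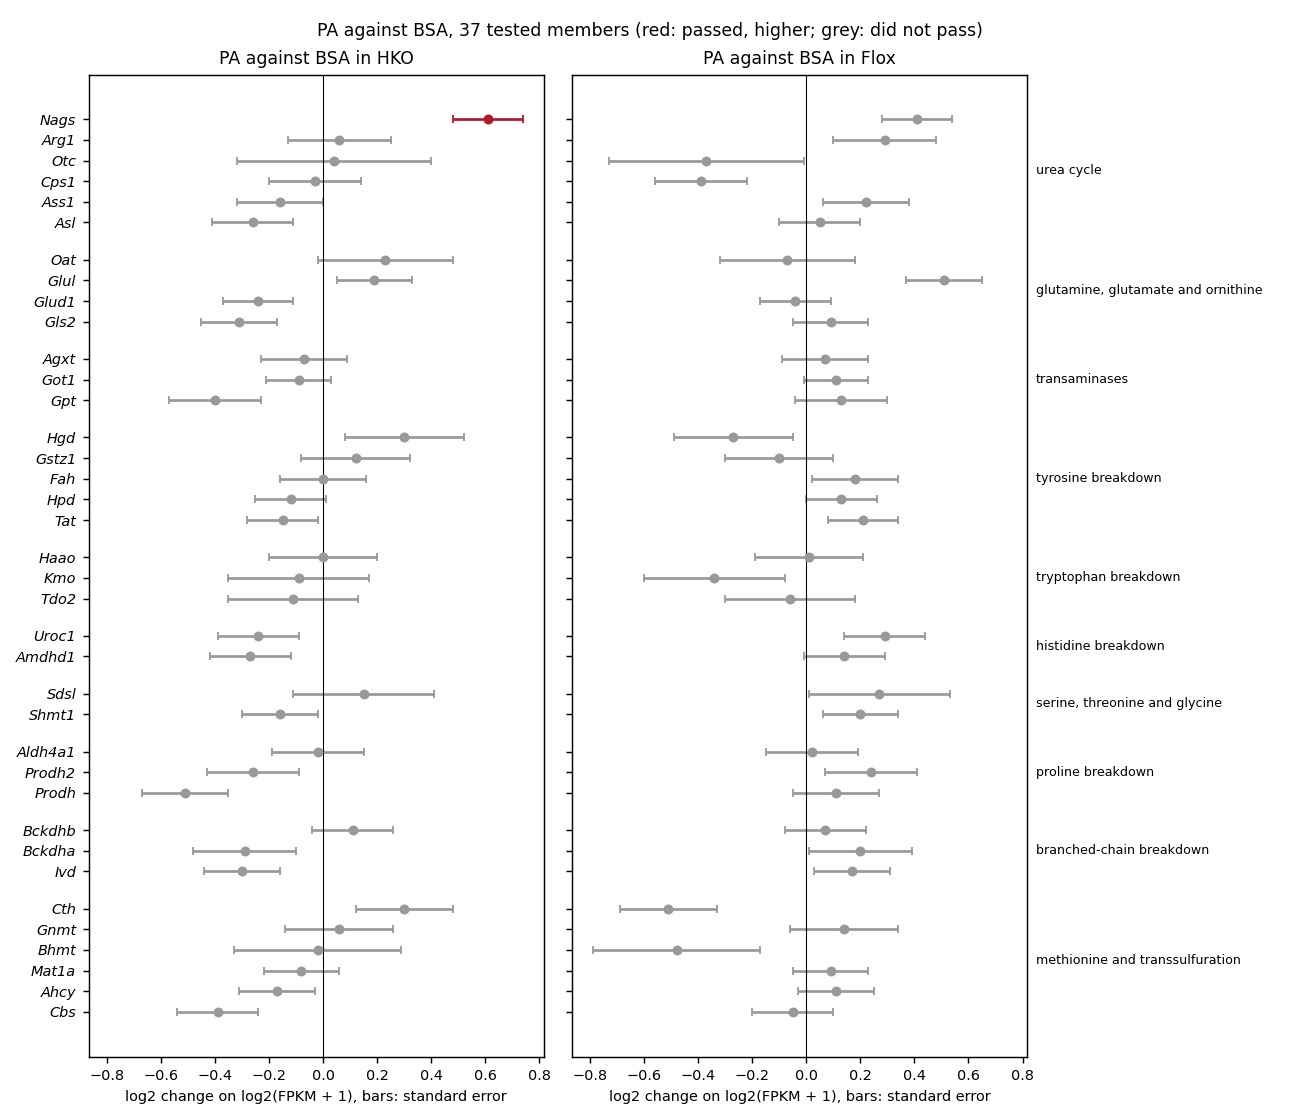
The log2 change of PA against BSA on log2(FPKM + 1) is plotted for the 37 tested enzymes, in HKO on the left and in Flox on the right, with bars for the standard error. Nags in HKO (0.61) is the single point that passed, and Glul (0.51) and Cth (-0.51) in Flox and Prodh (-0.51) in HKO come next in size without passing.

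The interaction, in which the change with PA in Flox is subtracted from that in HKO, asked whether the response to PA depends on the genotype. By limma 0 of the 37 enzymes passed, where 0.267% of all genes did, and 5 had an unadjusted p under 0.05, as did 17.4% of all genes. By voom on the computed reads 0 passed as well, where 0.308% of all genes did, with 5 at an unadjusted p under 0.05. The 5 by limma were Cth (0.81 ± 0.26, SE, adjusted p = 0.166), Prodh (-0.62, adjusted p = 0.205), Uroc1 (-0.54, adjusted p = 0.238), Ivd (-0.47, adjusted p = 0.26) and Gpt (-0.52, adjusted p = 0.278). The difference between PA and BSA in the genotype effect was therefore not shown for any single enzyme, those that passed under 1 treatment included.

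Within some HKO libraries the deviation from the rest of the group varied with the base composition of the transcripts. HKO_BSA 1 differed from the other 2 libraries of its group by between -1.37 (Bhmt) and 1.13 (Sdsl) on the log2 scale, and over the 37 enzymes this deviation had a Spearman correlation of 0.83 with the GC content of the longest transcript (0.72 over 9736 genes). For HKO_BSA 2 and 3, whose deviations are measured against HKO_BSA 1 among others, it was -0.80 and -0.78 over the enzymes. Over all genes it was -0.57 and -0.55 there. For HKO_PA 3 the correlation was 0.46 over the enzymes and 0.51 over all genes. For HKO_PA 1 it was -0.27 over the enzymes and -0.35 over all genes, and for HKO_PA 2 -0.49 and -0.10. In the 6 Flox libraries it ran from -0.52 (Flox_BSA 3) to 0.50 (Flox_BSA 1) over the enzymes. Over all genes these libraries had -0.02 and 0.05, and the Flox range was -0.37 (Flox_PA 1) to 0.28 (Flox_PA 2). The AT-rich transcripts of Tdo2 (39.6% GC), Otc (41.1%), Bhmt (43.1%), Kmo (43.7%), Cth (44.2%) and Oat (47.3%) were low in HKO_BSA 1, and the GC-rich transcripts of Sdsl (60.2%), Gpt (59%) and Gnmt (57.5%) were high in it. These correlations are across genes of 1 library, and they are descriptions, because the genes share that library. The change of PA against BSA in Flox also followed GC content, over the 37 enzymes (Spearman 0.59) and over 9736 genes (0.47). That of HKO against Flox in PA did so inversely (-0.46 over the enzymes and -0.36 over all genes). That of HKO against Flox in BSA did not (0.02 in each set). After a trend with GC content had been removed from each library, 17 enzymes were higher and 1 lower in BSA, where 13.3% of all genes passed in each direction, and 14 were higher and 4 lower in PA, where 18.1% passed upward and 21.6% downward, with Otc at 1.28 in PA and 1.19 in BSA, Tat at 0.55 and 0.94, and Nags at -0.40 and -0.80. Both counts of higher enzymes include Tdo2 and Kmo, which were tested only through the HKO libraries. These counts are tied to that filter. The part of base composition in the remaining differences was not tested.

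**Figure D4:**
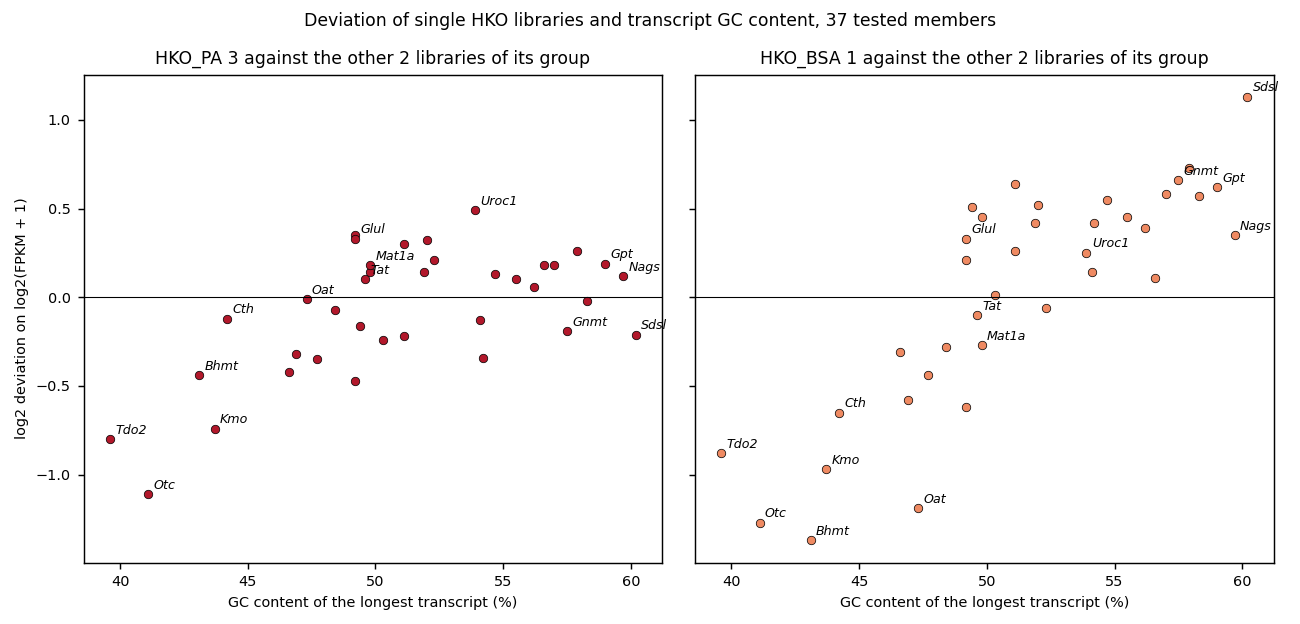
For HKO_PA 3 on the left and HKO_BSA 1 on the right, the log2 deviation of each of the 37 enzymes from the other 2 libraries of the group is plotted against the GC content of its longest transcript in percent. Points rise from the lower left (Otc, Tdo2, Bhmt) to the upper right in HKO_BSA 1, and Otc, Tdo2 and Kmo are again lowest in HKO_PA 3.

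A wider list of 62 further enzymes and mitochondrial carriers of amino acid breakdown, of which 50 were tested, served as surroundings for the 39. In PA 13 of the 50 were higher and 3 lower in HKO, and in BSA 18 were higher and 2 lower, with a median log2 change of 0.20 and 0.34 on the FPKM scale; their values with the hepatocyte scaling were not computed. Of all genes, 16.9% passed upward and 18.8% downward in PA, and 9.63% and 10.8% in BSA. The counts of lower enzymes include Bcat2 and Arg2 in both treatments, which were tested only through the Flox libraries, so these counts are tied to that filter. Gcdh of lysine and tryptophan breakdown averaged 34.2 ± 3.17 FPKM in HKO_PA and 35.3 ± 2.71 FPKM in HKO_BSA, against 23 ± 1.42 FPKM in Flox_PA and 20.8 ± 2.45 FPKM in Flox_BSA (limma log2 change 0.55, adjusted p = 0.00548, and 0.74, adjusted p = 0.000755). Pcbd1 and Qdpr, which recycle the cofactor of phenylalanine hydroxylase, also passed in PA (0.58 and 0.53) and in BSA (0.54 each).

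Around Gnmt, Dmgdh, which makes sarcosine from dimethylglycine, averaged 26.6 ± 3.22 FPKM in HKO_PA and 33.5 ± 5.15 FPKM in HKO_BSA, against 19.3 ± 1.88 FPKM in Flox_PA and 19.8 ± 2.47 FPKM in Flox_BSA, and passed in both (0.44, limma adjusted p = 0.0329, and 0.73, adjusted p = 0.003). Sardh, which oxidises sarcosine, was the 1 of the 50 wider enzymes that passed with PA in HKO, where 2.94% of all genes passed. Its log2 change was -0.70 ± 0.17 (SE, limma adjusted p = 0.0466), at 19.4, 21.9 and 29.1 FPKM in HKO_PA against 48.1, 34.1 and 33.8 FPKM in HKO_BSA. The glycine cleavage genes Gldc and Amt passed in BSA (0.67, adjusted p = 0.0272, and 0.84, adjusted p = 0.00107) and not in PA (-0.27 and 0.14). Suox, sulfite oxidase at the end of cysteine breakdown, passed in PA (0.44, adjusted p = 0.0267) and in BSA (1.22, adjusted p = 1.48e-05), and Ethe1, a mitochondrial sulfur dioxygenase, did so too (0.54, adjusted p = 0.046, and 0.74, adjusted p = 0.0166). Kyat1, a kynurenine aminotransferase, was the 1 of the 50 that passed with PA in Flox (0.78, adjusted p = 0.0315), where 2.21% of all genes passed. Kyat1 also passed in HKO against Flox in BSA (0.89, adjusted p = 0.00193). Its relative Kyat3 passed under both treatments (1.14 and 0.85), as did Mccc2 (0.43 and 0.68) and Aldh6a1 (0.54 and 0.65) of branched-chain breakdown. Gpt2, the mitochondrial partner of Gpt, passed in BSA (0.58, adjusted p = 0.0336), and so did Car5a, which supplies bicarbonate to Cps1 (0.54, adjusted p = 0.0303).

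The wider enzymes counted as lower were Bcat2 and Arg2 under both treatments, and in PA also Shmt2, the mitochondrial serine hydroxymethyltransferase (-0.51, limma adjusted p = 0.0159), named after its value was seen. Bcat2, the mitochondrial branched-chain aminotransferase, which is low in hepatocytes, had 0.343, 0.271 and 0.136 FPKM in HKO_PA and 0.231, 0.13 and 0.267 FPKM in HKO_BSA, against 3.08, 3.06 and 2.58 FPKM in Flox_PA and 2.71, 2.65 and 2.49 FPKM in Flox_BSA. Arg2, the arginase found mainly outside the liver, had 0.625, 0.51 and 0.835 FPKM in HKO_PA and 0.316, 0.0444 and 0.122 FPKM in HKO_BSA, against 2.26, 3.77 and 3.02 FPKM in Flox_PA and 2.52, 2.18 and 2.58 FPKM in Flox_BSA. Both were far apart between the genotypes, as the 16 macrophage markers were, and the part of that difference in cell markers was not tested. Both reached the mean of 1 FPKM needed for testing only through the Flox libraries, so their place among the tested enzymes is tied to their direction. Their calls in the counts of lower enzymes are tied to it as well, and no p-value is given for them.

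Of 10 tested amino acid transporters, 2 were higher and 4 lower in HKO in PA, and 2 were higher and 1 lower in BSA. Of all genes 16.9% passed upward and 18.8% downward in PA, against 9.63% and 10.8% in BSA. Slc38a3, the glutamine carrier of liver cells, averaged 28.3 ± 2.38 FPKM in HKO_PA and 37.2 ± 5.76 FPKM in HKO_BSA, against 19.1 ± 3.11 FPKM in Flox_PA and 14 ± 1.55 FPKM in Flox_BSA (limma log2 change 0.55, adjusted p = 0.0148, and 1.34, adjusted p = 1.54e-05). Slc3a1, a subunit of the cystine carrier, passed too (0.68 and 1.04). Slc7a2, a carrier of arginine and ornithine, was the 1 transporter that passed in 4 comparisons: it had 1.46, 1.97 and 1.71 FPKM in HKO_PA and 0.621, 0.625 and 0.698 FPKM in HKO_BSA, against 4.14, 5.09 and 5.13 FPKM in Flox_PA and 2.17, 2.62 and 2.14 FPKM in Flox_BSA. It was lower in HKO under both treatments (-1.09 in PA and -1.0 in BSA, adjusted p = 9.48e-06 and 2.2e-05) and higher with PA in HKO (0.72, adjusted p = 0.00579) and in Flox (0.80, adjusted p = 0.00288). The other transporters that were lower in PA, named after their values were seen, were Slc7a5 (-1.04, adjusted p = 0.00248) and its partner Slc3a2 (-0.60, adjusted p = 0.00908), which together carry large neutral amino acids, and the glycine carrier Slc6a9 (-1.01, adjusted p = 0.0198). Slc1a4, a carrier of neutral amino acids, fell with PA in HKO (-0.74, adjusted p = 0.0351). With PA 1 of the 10 transporters was higher and 1 lower in HKO, and 1 was higher in Flox, where 2.94% and 2.21% of all genes passed.

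Of 11 tested regulators of these genes, Creb3l3, a transcription factor of the liver that is tethered to the endoplasmic reticulum, passed in the same 4 comparisons. In PA 1 of the 11 was higher and 1 lower in HKO, where 16.9% of all genes passed upward and 18.8% downward. In BSA 2 were higher, where 9.63% passed upward and 10.8% downward. With PA 1 of the 11 was higher in each genotype, where 2.94% of all genes passed in HKO and 2.21% in Flox. Creb3l3 had 64.9, 56.6 and 68.4 FPKM in HKO_PA and 22.5, 16.7 and 18.6 FPKM in HKO_BSA, against 22.9, 36.8 and 27.7 FPKM in Flox_PA and 9.37, 9.5 and 9.28 FPKM in Flox_BSA. It was higher with PA in HKO (1.67, limma adjusted p = 8.97e-05) and in Flox (1.51, adjusted p = 0.000328), and higher in HKO in PA (1.11, adjusted p = 0.000185) and in BSA (0.95, adjusted p = 0.000756). Gcgr, the receptor of glucagon, a hormone that drives amino acid breakdown in liver, had 35.6, 26.7 and 30.9 FPKM in HKO_PA and 54.6, 29.3 and 35.4 FPKM in HKO_BSA, against 22.1, 27.7 and 24.3 FPKM in Flox_PA and 21.5, 21.6 and 21.5 FPKM in Flox_BSA. It passed in BSA (0.81, adjusted p = 0.00814) and not in PA (0.32, adjusted p = 0.213). The 1 regulator that was lower in PA, named after its value was seen, was Cebpb, a factor of the acute phase (-0.84, adjusted p = 0.0135). No regulator was lower in BSA by limma.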

How the data were processed

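RNA-seq of 12 libraries was used as deposited. The authors' table holds FPKM per gene and library, with gene lengths; per the labels' protocols, the RNA was taken up with the RNeasy Plus Mini Kit and made into libraries with the NEBNext Ultra RNA kit, and per the submitters' processing notes the build is GRCm38 (mm10). The sources used here give no aligner, counter, annotation release or use of strand, so reads of a gene and of one that overlaps it on the other strand cannot be told apart. FPKM times length gave whole reads within 0.01 for 100% of values up to 1000 reads, so depth is 15.02 M to 18.42 M reads in genes. The deposited FPKM divide by the authors' library sizes of 13.44 M to 19.14 M. On the log2 scale these averaged -0.08 in HKO_PA and -0.06 in HKO_BSA relative to the reads in genes, against 0.08 in Flox_PA and 0.11 in Flox_BSA. No source used here says how they were set.

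Values were tested as log2(FPKM + 1) in limma 3.58.1 (R 4.3.3), two-sided, with a variance prior that follows the mean level, in 1 fit of 4 group means. Genes were tested where their mean over the 12 libraries was 1 FPKM or more, and p-values were adjusted by Benjamini-Hochberg over all of them, with a threshold of 0.05. Fold changes on this scale understate those of low genes. A gene passed, was higher or was lower where its adjusted p was under the threshold. Since the labels do not say whether the libraries of 1 group come from different mice, the p-values reflect the spread between these samples alone, which may be technical. The fit was tested on simulated data. The members, role groups and wider lists were chosen with earlier results of these data known. Values per library are given for members that passed in a PA comparison, for up to 3 members per role group with the highest absolute change among those that passed in HKO against Flox (where none passed, the 2 with the smallest p), and for some others chosen after their values were seen (Ass1, Oat, Bhmt). Of each wider list the 3 genes or fewer with the highest absolute change among those that passed in HKO against Flox in BSA are named, and all that passed in a PA comparison. Gcat was left out, since 2 rows carry its name. GC content is that of the longest GENCODE M21 transcript, and 37 of the 39 genes have the same position there. Promoters are from RefSeq.

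The alternatives were a pseudocount of 0.1, no filter, a filter at 5 FPKM, quantile normalization, median ratio scaling, scaling on the hepatocyte markers, a robust prior, fits of the compared groups only, limma-voom on the computed reads, a block for the replicate number, leaving out each library in turn, and leaving out both HKO libraries numbered 1. Removal of a GC trend and scaling to the reads in genes were added after the data were seen.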

Additional observations from a re-analysis of the deposited data

How the results depend on the processing

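Against 15 enzymes that passed in each genotype comparison, leaving out 1 library gave 10 to 16 in BSA and 8 to 14 in PA (8 without Flox_PA 2, 9 without Flox_PA 3 and 9 without HKO_PA 1). Of all 9743 genes, 1329 to 2376 then passed in BSA and 2280 to 4203 in PA. Some of these counts of enzymes include Tdo2 or Kmo, which were tested only through the HKO libraries. Passed with every library left out in turn: 10 of 15 in BSA (Gnmt, Glud1, Got1, Gpt, Agxt, Mat1a, Tat, Nags, Gls2 and Amdhd1) and 5 of 15 in PA (Gnmt, Gstz1, Tat, Otc and Nags). For PA against BSA in HKO the range was 0 to 2 (129 to 776 of all 9743 genes), and in Flox it was 0 throughout (64 to 169 of all genes). Scaling on the hepatocyte markers gave 18 in BSA (0 higher, 18 lower) and 18 in PA (2 higher, 16 lower); the scaling itself lowers all HKO values. Among the changes that had passed, it turned the sign of Glud1 (-0.20 in BSA, -0.16 in PA), Got1 (-0.27, -0.23), Agxt (-0.12, -0.02), Mat1a (-0.20, -0.13), Gpt, Prodh2 and Ivd in BSA (-0.14, -0.27, -0.17) and Gls2 in PA (-0.11). Changes that had not passed turned as well, such as Gpt, Prodh2 and Ivd in PA (-0.43, -0.53, -0.42), which then passed downward. Scaling to the reads in genes gave 12 in BSA (11 higher, 1 lower) and 13 in PA (8 higher, 5 lower). For PA against BSA in Flox, 4 passed with only Flox fitted and 4 without both HKO libraries numbered 1, a fit with less pooled spread. Of all 9743 genes, 1543 and 1356 passed there. In HKO, 0 passed with only HKO fitted, with no filter and with the replicate block within genotype, where 42 of 9743, 144 of 23820 and 113 of 9743 genes passed. With the GC trend removed 2 did (Nags and Prodh), as did 602 of 9743 genes. Without both HKO libraries numbered 1, 6 passed, 2 higher (Nags and Glul) and 4 lower (Otc, Kmo, Bhmt and Glud1), as did 679 of 9743 genes. In the interaction 0 passed under every alternative run. Of 9743 genes, 1994 passed in BSA, against 1329 without Flox_BSA 1, 7403 with the hepatocyte scaling and 3579 without both HKO libraries numbered 1. With a filter at 5 FPKM it was 1062 of 5700 genes. In PA 3475 of 9743 passed, against 2280 without Flox_PA 3 and 5329 with the hepatocyte scaling. For PA in Flox 215 passed (64 to 1543 over the alternatives), for PA in HKO 286 (42 to 776) and in the interaction 26 (0 to 265).

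Deviations of libraries with the same number correlated between -0.484 and 0.363, and those with different numbers between -0.371 and 0.509. Between BSA and PA, numbers 1, 2 and 3 gave 0.203, -0.015 and 0.316 in Flox and -0.243, 0.349 and -0.484 in HKO. These values cannot tell whether the numbers pair the samples, since deviations in HKO also varied with GC content. The labels do not say, and the main fit takes no account of a pairing. With the number as a block, 14 enzymes passed in BSA, 14 in PA, 1 for PA in HKO, 0 for PA in Flox and 0 in the interaction. Of all 9743 genes, 1988, 3444, 224, 168 and 15 passed in the same order. Depth limits Sds, Hal, Kmo, Tdo2 and Amdhd1, whose Flox libraries hold at most 85 reads each.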
